A study of Arabidopsis thaliana with 16 samples.

Results

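The response of wild-type roots to the auxin indole-3-acetic acid (IAA) was measured on 4 of the 16 arrays of a study of ethylene and auxin in roots of Arabidopsis thaliana, a small flowering plant used as a model. Dark-grown Col-0 (Col) seedlings, aged 3 days at 22 °C, were sprayed with 1 µM IAA in 2 replicates or with the 0.01% ethanol solvent alone (mock) in 2 replicates, and the roots were cut off after 4 h. The other arrays, again 2 in each group, were the same 2 treatments in ein2-5 seedlings, which are insensitive to ethylene (ein2), and 4 h of air or of 10 ppm ethylene in Col and in the auxin-resistant mutant aux1-7. Each array held whole roots, so fewer cells of a type and less RNA per cell cannot be told apart. The comparison covers every probe set other than controls whose log2 value passed 4 in 2 or more of the 16 arrays, 14244 of 22746. Of these, 7714 matched 1 named gene in the annotation used here and 6194 were not listed in it, so the latter were counted and not named.

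Auxin is perceived in the nucleus by the TIR1/AFB F-box proteins, which bind it together with the Aux/IAA repressors and mark these for degradation. The ARF transcription factors are then free to act on auxin-responsive genes. The genes that respond include GH3 genes, whose enzymes join IAA to amino acids and so lower the free hormone, and LBD genes, whose transcription factors start lateral roots.

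One of the 4 arrays stood apart. In Col mock replicate 1, 50 probe sets lay more than 2 log2 units above all 15 other arrays, against 22 in Col air replicate 1, 1 in aux1 ethylene replicate 1 and 0 elsewhere. The 10 with a named gene included RCA, which encodes Rubisco activase, the 1 of 9 listed shoot markers with a named probe set, at 7.82 in that array against 2.70 in mock replicate 2 and 2.87 and 2.70 in the IAA arrays. PSAE-1, a subunit of photosystem I, stood at 6.96 against 2.24, 2.34 and 2.28. Of 12 photosynthesis genes picked by symbol after these values had been seen, 10 were above 4 in that array and 2 or 3 in each of the other 15, and their summed linear signal was 1269 against 139.6 to 455.2. Of the 50 probe sets, 8 passed the filter and 0 were called, and of the 12 genes 3 were tested and 0 called. Being high in 1 array alone makes both the filter and a call hard to pass. These counts therefore do not measure how far the results carry the difference of this array. The part of this difference in the results was not tested, and where a named call of the IAA effect in Col was lost without an array, the adjusted p value without that array is given in parentheses. Among defining markers of root tissue, 2 of 20 had a named probe set, the root hair expansins EXPA7 (7.47 and 8.12 against 7.43 and 8.03, mock against IAA) and EXPA18 (7.69 and 8.55 against 7.40 and 8.28). Both were above 7 in all 4 arrays. Array medians lay between 5.874 and 6.004. The SD between replicates was 0.213 in Col mock and 0.187 in Col IAA. It was taken over the probe sets that passed the filter, which hold 8 of the 50 above.

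**Figure D1:**
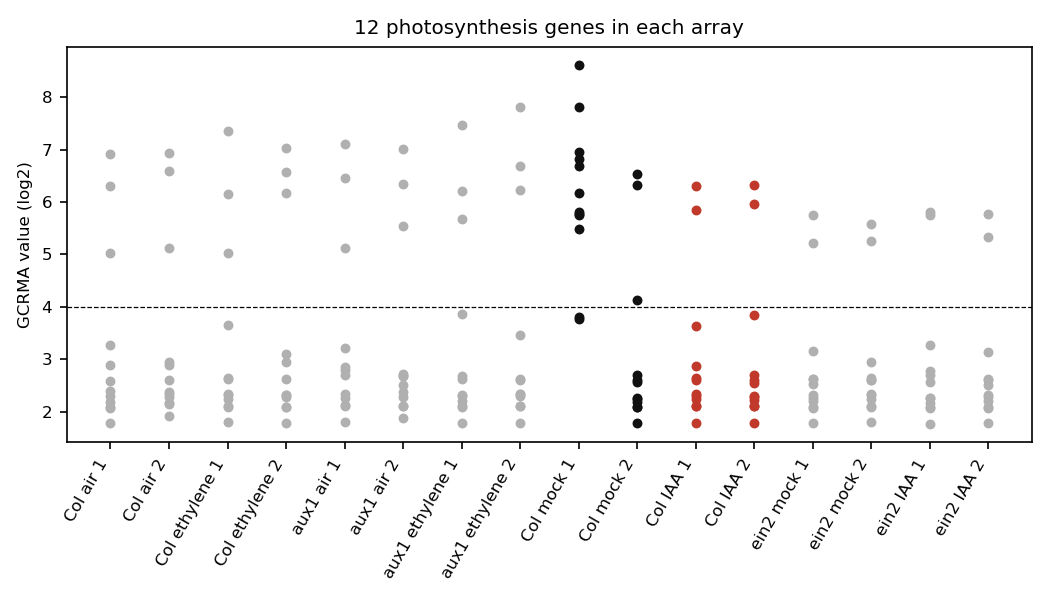
GCRMA values (log2) of 12 photosynthesis genes in each of the 16 arrays, 1 point per gene; the dashed line marks the filter at 4, Col mock is black and Col IAA red. In Col mock replicate 1, 10 of the 12 genes lie above 4, against 2 or 3 in every other array.

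In wild-type roots 973 of the 14244 probe sets changed with IAA (6.83%), 582 of them higher (4.09%) and 391 lower (2.75%). A change is the IAA mean minus the mock mean of the log2 values, given ± its moderated standard error with n = 2 arrays in each group, and it was called at an adjusted p under 0.05 over all probe sets tested (limma, Benjamini-Hochberg, two-sided). The called rises reached larger sizes than the called falls. At least 2-fold changes were called for 213 probe sets upwards and 105 downwards, at least 4-fold for 70 and 2, and at least 16-fold for 12 and 0, of which 7 had a named gene. The median called rise was 0.81 and the median called fall -0.76, against a median of 0.002 over all probe sets tested. Split by the mean over all 16 arrays, 5.14% of the 3561 probe sets with the lowest level were called higher and 2.25% lower, against 2.44% and 3% of the 3561 with the highest. A probe set low under mock can pass the filter through the IAA arrays alone, which favours rises among the lowest levels. The count of calls rests on all 4 arrays. It was 413 without Col mock replicate 1, 496 without Col mock replicate 2, 421 without Col IAA replicate 1 and 516 without Col IAA replicate 2, and 393 were shared by the fit without Col mock replicate 1 and that on all arrays (95.2% of the 413 and 40.4% of the 973). All 973 kept their direction without Col mock replicate 1, which a call on all arrays makes likely.

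**Figure D2:**
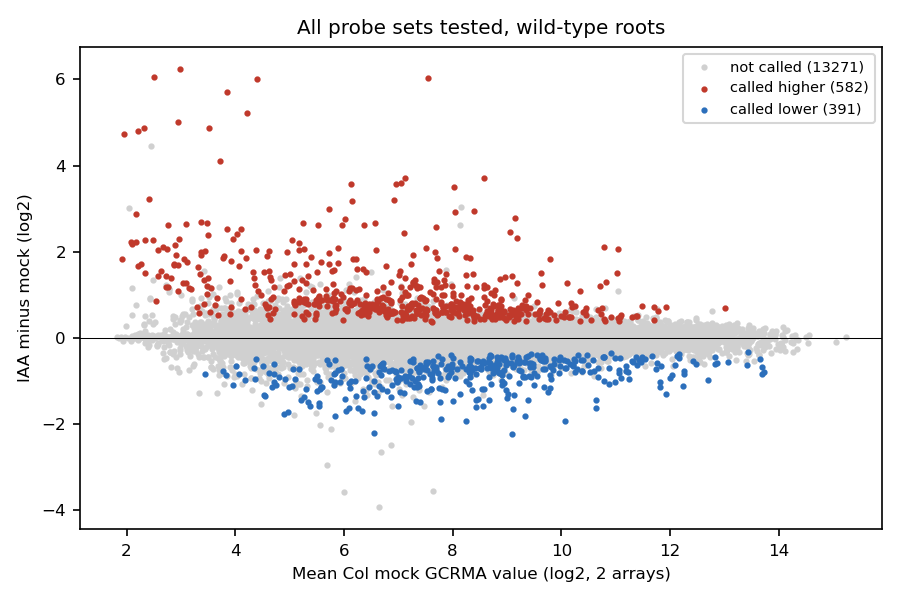
IAA minus mock in Col (log2) against the mean mock value (log2, 2 arrays), 1 point per probe set tested, with called rises in red and called falls in blue. The 582 rises reach beyond 6 log2 units, whereas 2 of the 391 falls pass 4-fold; the mock mean on the horizontal axis is also part of the difference on the vertical axis.

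GH3.1, GH3.3 and the lateral root gene LBD29 had the largest rises among named genes, about 6 log2 units each, and their errors do not resolve the order. GH3.1 (AT2G14960) stood at 2.46 and 2.56 in the mock arrays and 8.79 and 8.32 in the IAA arrays, a rise of 6.05 ± 0.39 (66.1-fold, adjusted p = 3.67e-06). Its mock mean of 2.51 was below the highest lower quartile of any array (2.55), a level taken here as near background, which limits what its fold can mean. GH3.3 (AT2G23170) was already expressed under mock and went from 7.82 and 7.27 to 13.56 and 13.57, a rise of 6.02 ± 0.75 (64.9-fold, adjusted p = 0.000738). Its standard error was the widest of the largest rises, and this error is pooled over all 8 groups. WES1 (AT4G27260), also known as GH3.5, measured 8.45 and 8.72 in the mock arrays and 12.03 and 12.57 in the IAA arrays, a rise of 3.71 ± 0.17 (adjusted p = 2.52e-07). In all 3 genes both IAA arrays lay more than 3 log2 units above both mock arrays. GH3.17 (AT1G28130), the highest of the family under mock, stood at 10.76 and 10.70 in the mock arrays and 10.88 and 11.14 in the IAA arrays and was not called (0.28 ± 0.13, adjusted p = 0.243). GH3.9 (AT2G47750) did not pass the filter. Of the 5 GH3 genes with a named probe set, then, 4 were tested and 3 rose, against 4.09% of all probe sets tested, with a median of 4.87.

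Aux/IAA genes, which encode the repressors that auxin removes, could hardly be followed, since 7 of 29 had a named probe set and 6 of these were below the filter. IAA18 (AT1G51950), the 1 tested, measured 8.15 and 8.29 in the mock arrays and 8.64 and 8.35 in the IAA arrays and was not called (0.28 ± 0.17, adjusted p = 0.411). Its groups did not overlap, as in 30.6% of all probe sets tested for IAA above mock. The kinase gene WAG2 (AT3G14370), which acts on auxin efflux carriers, was the 1 tested gene of 20 in auxin transport and stood at 0.23 ± 0.18 (adjusted p = 0.542). ARF genes, auxin receptors and cell cycle genes on the lists had no named probe set and were not analysed here.

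Of 4 tested genes on the list of LBD and lateral root regulators 3 rose, against 4.09% of all probe sets tested. LBD29 (AT3G58190), a LOB-domain transcription factor that acts at lateral root initiation, stood at 4.16 and 4.63 in the mock arrays and 10.21 and 10.61 in the IAA arrays. Its rise of 6.02 ± 0.28 (64.7-fold, adjusted p = 3.19e-07) had a smaller error than that of either of the top GH3 genes. LBD16 (AT2G42430), a relative that acts with it, was higher under mock and rose less, from 7.20 and 7.60 to 8.72 and 8.44 (1.18 ± 0.20, adjusted p = 0.00488). LBD16 lost its call without Col mock replicate 1 (0.0591) or without Col IAA replicate 1 (0.0546). PUCHI (AT5G18560), an AP2-type transcription factor of the young lateral root primordium, went from near background, 2.57 and 2.40, to 4.39 and 5.11 (2.27 ± 0.27, adjusted p = 0.000478). For all 3 both IAA arrays lay above both mock arrays, as in 30.6% of all probe sets tested. Being called higher makes this likely. HAT2 (AT5G47370), a homeodomain protein, stood at 7.99 and 8.03 in the mock arrays and 8.26 and 8.13 in the IAA arrays and was not called (0.19 ± 0.16, adjusted p = 0.572). Of the 25 loci on that list 5 had a named probe set.

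The CLE genes encode short secreted signalling peptides, and CLE41 and CLE44 are known to yield the same peptide, which keeps vascular stem cells dividing. CLE44 (AT4G13195) rose from 6.04 and 6.23 to 9.61 and 9.79, by 3.57 ± 0.16 (11.8-fold, adjusted p = 2.52e-07). CLE41 (AT3G24770) measured 4.13 and 3.67 in the mock arrays and 4.14 and 3.61 in the IAA arrays, a difference of -0.03 ± 0.27 (adjusted p = 0.973). The spread between the replicates of CLE41 was wider than the difference between its groups, while the groups of CLE44 stood more than 3 log2 units apart.

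**Figure D3:**
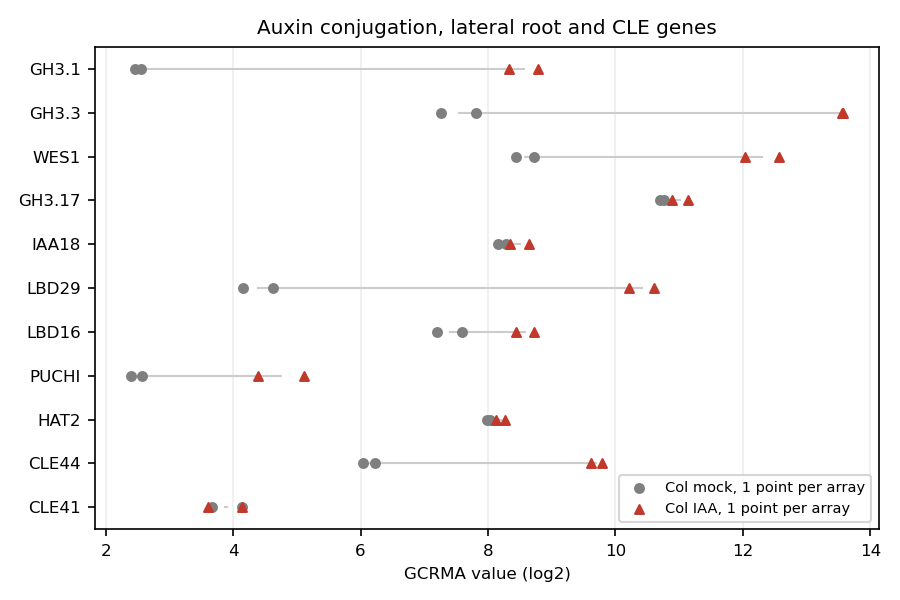
GCRMA values (log2) of the tested GH3, Aux/IAA, lateral root and CLE genes in the 2 mock (grey circles) and 2 IAA arrays (red triangles) of wild-type roots; the line joins the group means. GH3.1, GH3.3, WES1, LBD29 and CLE44 lie more than 3 log2 units higher in both IAA arrays, while GH3.17, IAA18, HAT2 and CLE41 were not called.

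Most of the other large rises were in loci with no symbol in the annotation. AT1G64405 went from 3.82 and 3.89 to 9.46 and 9.67 (5.71 ± 0.16, adjusted p = 7.69e-09), the smallest p of any gene named here. The polygalacturonase gene AT5G14650, of a family of enzymes that cut pectin, stood at 2.31 and 2.33 in the mock arrays and 6.62 and 7.75 in the IAA arrays (4.87 ± 0.30, adjusted p = 3.07e-06). The dirigent gene AT1G22900, of a family that guides phenolic coupling, rose from 1.96 and 1.94 to 6.46 and 6.91 (4.73 ± 0.18, adjusted p = 8.96e-08). These last 2 genes were near background in both mock arrays. By the mock mean 16 of the 582 called rises were near background, whereas by the IAA mean 0 of the 391 called falls reached that level. AT4G37295 rose by 4.87 ± 0.36, AT1G62770 by 3.70 ± 0.17, AT5G55050 by 3.59 ± 0.30, AT2G19970 by 3.51 ± 0.25 and AT5G62280 by 3.00 ± 0.39.

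The remaining rises among the 25 largest ran from 2.79 to 2.30. They were those of AT1G60010, AT3G19200, AT3G47480, AT4G25410, AT2G28690, AT5G47550, AT3G57780, AT1G03820, AT5G67430, AT1G74440, AT4G35200 and AT5G66780. AT3G47480, an EF-hand gene of a family that binds calcium, stood at 3.46 and 3.27 in the mock arrays and 5.81 and 6.31 in the IAA arrays (2.69 ± 0.21, adjusted p = 1.75e-05). AT4G35200, which carries the DUF241 domain of unknown function, rose from a mock mean of 3.49 to an IAA mean of 5.87 (2.38 ± 0.25, adjusted p = 0.000192). The 25 were taken from called rises in which both IAA arrays lay above both mock arrays, which makes a wide gap more likely. In 24 of the 25 the gap between the groups was wider than the widest difference between replicates, and 22 of the 25 were called whichever of the 4 arrays was left out. The exceptions were AT4G25410 (2.75 and 4.23 in the mock arrays and 5.40 and 6.93 in the IAA arrays), AT2G28690 (4.71 and 5.80 in the mock arrays and 7.91 and 7.92 in the IAA arrays) and AT5G66780 (3.99 and 3.91 in the mock arrays and 6.99 and 5.52 in the IAA arrays), each with replicates over 1 log2 unit apart in a group. AT4G25410 lost its call without Col mock replicate 1 (0.107) or without Col IAA replicate 2 (0.0941), AT2G28690 without Col mock replicate 1 (0.0726) and AT5G66780 without Col mock replicate 1 (0.181), without Col mock replicate 2 (0.19) or without Col IAA replicate 1 (0.351).

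Some of the rises lay side by side on a chromosome. Of 2352 pairs of adjacent protein-coding genes in the reference annotation with both members tested, 15 had both called, 9 with both higher, 2 with both lower and 4 in opposite directions. Of the tested neighbours of a called gene 9.62% were called, against 6.82% of all 7642 loci tested. AT4G35200 and AT4G35210, both with a DUF241 domain, rose by 2.38 ± 0.25 and 2.15 ± 0.17, and their relatives AT2G17070 and AT2G17080, also adjacent, by 1.56 ± 0.23 and 1.49 ± 0.28. AT1G60000 and AT1G60010 rose by 1.49 ± 0.34 and 2.79 ± 0.21, and AT1G74440 and AT1G74450 by 2.40 ± 0.40 and 1.39 ± 0.26. AT3G58180, next to LBD29, rose by 0.69 ± 0.15. Without 1 array the calls of AT2G17080 (up to 0.0758), AT1G60000 (up to 0.172), AT1G74450 (up to 0.0779) and AT3G58180 (up to 0.157) were lost in at least 2 of the 4 omissions. In the opposite pairs AT1G62500 rose by 1.68 ± 0.33 beside AT1G62510 (-1.20 ± 0.17), and AT5G14130 rose by 2.09 ± 0.30 beside AT5G14120 (-0.53 ± 0.12). AT1G62500 lost its call without Col mock replicate 1 (0.0611), without Col mock replicate 2 (0.0677) or without Col IAA replicate 2 (0.0878) and AT5G14120 without each of the 4 arrays in turn (0.0703 to 0.184). Whether the probe sets of like neighbours bind each other's transcripts was not tested.

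Genes of the cell wall were called in both directions, and their counts stand against 4.09% called higher and 2.75% called lower over all probe sets tested. Expansins loosen the wall, and of 11 tested 2 rose and 2 fell, with a median of -0.06 over the family. EXPA4 (AT2G39700) stood at 9.23 and 8.71 in the mock arrays and 10.59 and 10.16 in the IAA arrays (1.41 ± 0.35, adjusted p = 0.0335) and EXPA20 (AT4G38210) rose by 0.79 ± 0.21 (adjusted p = 0.0462). EXPB1 (AT2G20750) measured 9.13 and 9.11 in the mock arrays and 7.49 and 7.46 in the IAA arrays, with less than 0.1 between replicates and a difference of -1.64 ± 0.15 (adjusted p = 7.38e-05). EXPA8 (AT2G40610) fell by 0.80 ± 0.19 (adjusted p = 0.0241). EXPB1 was called whichever array was left out. EXPA4 lost its call without each of the 4 arrays in turn (0.0706 to 0.233), EXPA8 without each of the 4 arrays in turn (0.0703 to 0.176) and EXPA20 without each of the 4 arrays in turn (0.101 to 0.273).

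XTH enzymes cut and rejoin xyloglucan, and of 7 tested 1 rose and 2 fell, against 4.09% and 2.75% of all probe sets tested. XTH16 (AT3G23730) went from 8.69 and 8.44 to 7.17 and 6.83 (-1.57 ± 0.21, adjusted p = 0.00115) and XTH21 (AT2G18800) from 8.34 and 8.26 to 7.37 and 7.08 (-1.08 ± 0.23, adjusted p = 0.0162). XTH20 (AT5G48070) rose by 0.91 ± 0.24 (adjusted p = 0.0444). XTH16 was called whichever array was left out, XTH21 lost its call without each of the 4 arrays in turn (0.0513 to 0.118) and XTH20 without each of the 4 arrays in turn (0.099 to 0.248). The GH9 endoglucanases, of which 6 were tested, had 1 call each way, beside the same shares of all probe sets. GH9C2 (AT1G64390) stood at 8.69 and 8.57 in the mock arrays and 9.79 and 9.82 in the IAA arrays (1.17 ± 0.13, adjusted p = 0.000259), and GH9B13 (AT4G02290) at 9.82 and 9.70 in the mock arrays and 8.45 and 8.59 in the IAA arrays (-1.24 ± 0.16, adjusted p = 0.000735). Neither pair of groups overlapped, as in 30.6% of all probe sets tested for IAA above mock and 28.1% for IAA below. Being called makes such a separation likely. Both calls held whichever array was left out.

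Genes acting on pectin were called in both directions, since the polygalacturonase gene AT5G14650 rose. The family counts that follow stand against 4.09% called higher and 2.75% called lower over all probe sets tested. Of 3 tested pectin methylesterase genes with PMEPCR in their symbol 2 fell and ATPMEPCRB stood at 0.16 ± 0.52 (adjusted p = 0.923). ATPMEPCRD (AT2G43050) fell from 7.76 and 7.84 to 6.68 and 6.55 (-1.19 ± 0.14, adjusted p = 0.000553), and PMEPCRF (AT5G53370) by 0.83 ± 0.16 (adjusted p = 0.00818). The pectin methylesterase inhibitor gene AT4G25250 stood at 9.44 and 9.22 in the mock arrays and 7.75 and 7.30 in the IAA arrays (-1.80 ± 0.21, adjusted p = 0.000481). AT4G25250 and AT5G14650 were named for the size of their change. Other loci with a code alone, including those among the largest rises, were not gathered by function. No direction is therefore given for the methylesterase, inhibitor or polygalacturonase families. Of 16 tested TBL genes, whose proteins add acetyl groups to wall polysaccharides, 2 fell, 0 rose and 14 were not called. The 2 were TBL41 (AT3G14850) at -0.92 ± 0.13 and TBL38 (AT1G29050) at -0.65 ± 0.16, and the median over the 16 was -0.25. ATPMEPCRD, AT4G25250 and TBL41 were called whichever array was left out. PMEPCRF lost its call without Col mock replicate 1 (0.0873) or without Col IAA replicate 2 (0.0668) and TBL38 without each of the 4 arrays in turn (0.0973 to 0.209).

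Among genes of the cytoskeleton the actin gene ACT11 (AT3G12110) stood at 8.57 and 8.36 in the mock arrays and 7.10 and 7.01 in the IAA arrays, a fall of 1.41 ± 0.15 (adjusted p = 0.000212). It was the 1 actin gene tested. TUB1 (AT1G75780), a beta-tubulin, measured 10.66 and 10.70 in the mock arrays and 9.70 and 9.86 in the IAA arrays (-0.90 ± 0.19, adjusted p = 0.0151), and was the 1 called of 7 tubulin genes, lost without each of the 4 arrays in turn (0.054 to 0.12). The other 6 were not called, and the 7 estimates had a median of -0.19 and lay below 0, as did 49.8% of all probe sets tested. Of 8 TRM genes, whose proteins recruit the TON1 complex to cortical microtubules, 2 rose and 1 fell, against 4.09% and 2.75% of all probe sets tested. TRM28 (AT5G03670) rose from 6.88 and 7.66 to 8.97 and 9.41 (1.92 ± 0.23, adjusted p = 0.000491), TRM19 (AT3G53540) by 1.43 ± 0.29 and TRM26 (AT2G17550) stood at -0.64 ± 0.17. TRM19 lost its call without Col mock replicate 1 (0.0652), without Col mock replicate 2 (0.0735) or without Col IAA replicate 1 (0.12) and TRM26 without each of the 4 arrays in turn (0.0583 to 0.285). IQD19 (AT4G14750), a calmodulin-binding protein and the 1 called of 8 in its family, fell by 0.93 ± 0.13 (adjusted p = 0.00165).

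Of 10 tested RNA polymerase subunits 4 rose and 6 were not called, against 4.09% of all probe sets called higher, and each of the 4 calls was lost in at least 2 of the 4 omissions of an array. The 10 estimates had a median of 0.42 and lay above 0, as did 50.2% of all probe sets tested. NRPA2 (AT1G29940) and NRPA1 (AT3G57660), the second-largest and largest subunits of RNA polymerase I, which transcribes ribosomal RNA, stood at 8.21 and 8.45 in the mock arrays and 9.37 and 9.14 in the IAA arrays and at 7.15 and 7.31 in the mock arrays and 8.03 and 7.98 in the IAA arrays. Their rises were 0.92 ± 0.17 (adjusted p = 0.00688) and 0.77 ± 0.19 (adjusted p = 0.0294). NRPE7 (AT4G14660), a subunit of the plant RNA polymerase V, rose by 0.85 ± 0.19 and NRPB12 (AT5G41010), a small subunit, by 0.72 ± 0.16. Every one of the 4 had both IAA arrays above both mock arrays, as in 30.6% of all probe sets tested, and being called higher makes this likely. NRPA2 lost its call without Col mock replicate 1 (0.0739) or without Col IAA replicate 1 (0.0744), NRPA1 without each of the 4 arrays in turn (0.0907 to 0.182), NRPE7 without Col mock replicate 1 (0.163), without Col IAA replicate 1 (0.152) or without Col IAA replicate 2 (0.054) and NRPB12 without Col mock replicate 1 (0.139), without Col mock replicate 2 (0.0649) or without Col IAA replicate 1 (0.177). The RNA polymerase, CLE, GH9, actin, TRM, IQD and PMEPCR families and the UGT, CYP, serine carboxypeptidase-like, LSM and ubiquitin-specific protease genes that follow were picked out after their values had been seen.

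Among enzyme families the counts called stand against 6.83% of all probe sets tested. UGT76D1 (AT2G26480) was the 1 called of 28 UGT glycosyltransferase genes, going from near background (2.18 and 2.24) to 3.47 and 4.29 (1.67 ± 0.29, adjusted p = 0.00547), and lost its call without Col IAA replicate 2 (0.0511). CYP84A4 (AT5G04330), at -0.99 ± 0.24, was the 1 called of 11 CYP genes, lost without each of the 4 arrays in turn (0.104 to 0.179). Of 16 serine carboxypeptidase-like genes 3 were called. Of these scpl28 (AT2G35770) rose by 2.02 ± 0.40 (adjusted p = 0.011), and scpl40 (AT3G63470) and SCPL34 (AT5G23210) fell, at -1.49 ± 0.40 (adjusted p = 0.0455) and -0.78 ± 0.19 (adjusted p = 0.0315). scpl28 lost its call without Col mock replicate 1 (0.0871), without Col IAA replicate 1 (0.0784) or without Col IAA replicate 2 (0.057), scpl40 without each of the 4 arrays in turn (0.166 to 0.195) and SCPL34 without each of the 4 arrays in turn (0.0704 to 0.228). The 5 WRKY, 6 bHLH, 8 glutathione transferase, 5 SWEET, 6 LSM and 12 ubiquitin-specific protease genes tested held 0 calls.

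Genes of other hormones on the lists were not called in the few cases that could be tested. RTE1 (AT2G26070), a regulator of the ethylene receptor ETR1, stood at 6.87 and 7.05 in the mock arrays and 7.16 and 7.36 in the IAA arrays (0.30 ± 0.18, adjusted p = 0.385). EIN3 (AT3G20770), the transcription factor at the end of ethylene signalling, measured 10.68 and 10.75 in the mock arrays and 10.75 and 10.71 in the IAA arrays (0.01 ± 0.14, adjusted p = 0.98). The cytokinin response regulator RR16 (AT2G40670) lay at 2.77 and 2.72 under mock and 2.78 and 2.77 under IAA. With ethylene in Col, RTE1 rose by 2.92 ± 0.18 (adjusted p = 2.19e-06) and RR16 by 1.81 ± 0.28 (adjusted p = 0.00178).

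The 20 largest falls with a named gene were close to each other in size, from -1.92 to -1.41. AT4G01140 led them, with 8.17 and 8.34 in the mock arrays and 6.40 and 6.27 in the IAA arrays (-1.92 ± 0.13, 3.78-fold higher in mock, adjusted p = 5.91e-06). AT3G18450 followed at -1.87 ± 0.25, AT5G38820 at -1.81 ± 0.34 and AT3G21340 at -1.75 ± 0.23. The 20 were taken from called falls in which both IAA arrays lay below both mock arrays. In all 20 the gap between the groups was wider than the widest difference between replicates, which this choice makes more likely. The peroxidase gene AT2G39040 stood at 8.34 and 8.52 in the mock arrays and 6.75 and 7.24 in the IAA arrays (-1.43 ± 0.17, adjusted p = 0.000478). AT1G22330 was measured by 2 probe sets, which fell by 1.46 ± 0.25 and 0.94 ± 0.17, the latter lost without Col mock replicate 2 (0.0717) or without Col IAA replicate 2 (0.0642). The other loci among the 20 were AT5G62420, AT3G19320, AT3G05150, AT3G46400, AT5G24100, AT5G38700, AT2G16980, AT1G49030 and AT3G59370. Calls of 14 of the 20 held whichever array was left out. AT2G16980 lost its call without Col mock replicate 1 (0.13), without Col mock replicate 2 (0.143) or without Col IAA replicate 1 (0.255), AT5G38700 without each of the 4 arrays in turn (0.066 to 0.12) and AT5G62420 without each of the 4 arrays in turn (0.103 to 0.195). AT3G46400 lost its call without Col mock replicate 1 (0.0613) or without Col IAA replicate 2 (0.0583), AT5G38820 without Col mock replicate 2 (0.0777) or without Col IAA replicate 1 (0.0874), and scpl40 as above.

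**Figure D4:**
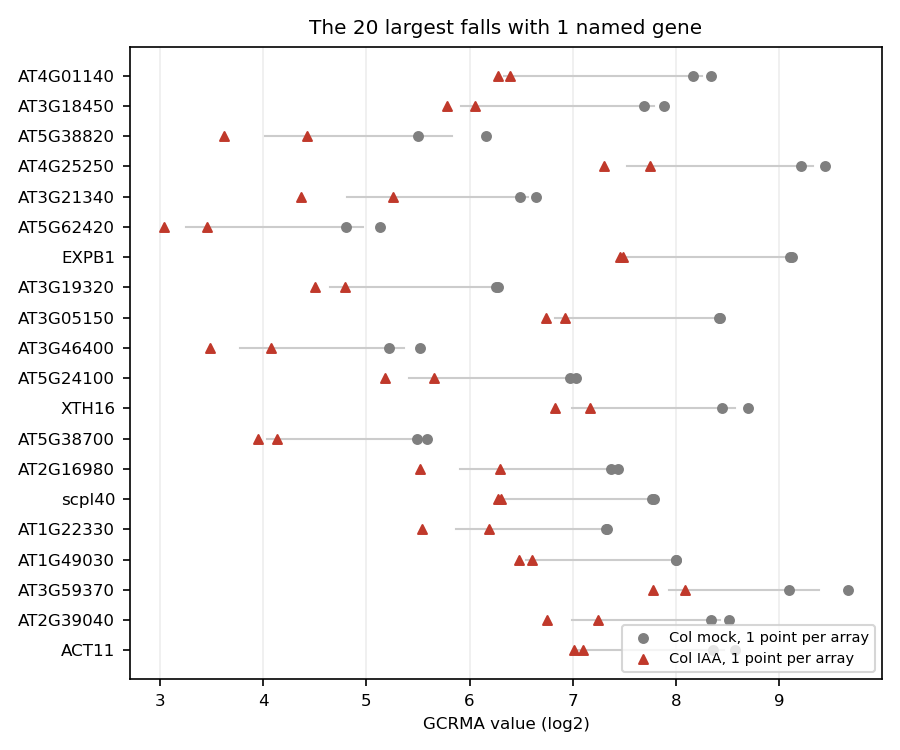
GCRMA values (log2) of the 20 largest called falls with 1 named gene in the 2 mock (grey circles) and 2 IAA arrays (red triangles) of wild-type roots; the line joins the group means. Genes were taken only where both IAA arrays lie below both mock arrays, and the differences run from -1.92 to -1.41.

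The 10 called named genes with the highest mean level over the 4 arrays had differences between -0.78 and 0.71. Since this mean includes the mock arrays, GH3.3, at 7.54 under mock and 13.56 under IAA, was not among them. AT3G01190 stood at 13.65 and 13.81 in the mock arrays and 12.86 and 13.03 in the IAA arrays (-0.78 ± 0.12, adjusted p = 0.00273). AT1G04040, AT5G17820, AT5G14120 and AT5G44020 also fell, and AT2G18980 (0.71 ± 0.19), AT5G23900, AT2G36930, AT1G25260 and DI21 (AT4G15910, 0.43 ± 0.11) rose. AT3G01190 was called whichever array was left out. AT1G04040 lost its call without Col mock replicate 2 (0.16) or without Col IAA replicate 1 (0.173), AT5G23900 without Col mock replicate 2 (0.062) or without Col IAA replicate 1 (0.0857) and AT2G36930 without Col mock replicate 1 (0.0748), without Col mock replicate 2 (0.0978) or without Col IAA replicate 1 (0.152). The other 6 lost theirs without each of the 4 arrays in turn (0.0524 to 0.251).

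The auxin response was compared with that of ein2 roots, since EIN2 carries the ethylene signal from its receptors to the nucleus. In ein2, 456 probe sets changed with IAA (3.2%), 271 higher (1.9%) and 185 lower (1.3%). The rises of the wild type went the same way there. Of the 582 probe sets that rose in Col, 573 were above 0 in ein2, against 47.9% of all probe sets tested, and 205 were called higher (35.2% of the 582 and 75.6% of the 271). Of the 391 that fell 378 were below 0, against 52.1% of all, and 130 were called lower (33.2% of the 391 and 70.3% of the 185). Of the 70 rises of at least 4-fold all 70 were above 0 in ein2 and 56 were called higher. The medians were 0.81 in Col and 0.50 in ein2 for the rises and -0.76 and -0.47 for the falls. These sets were chosen by their size in Col, which favours a smaller value in any other sample.

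Tested directly, the IAA effect was called different between the genotypes at 0 of 14244 probe sets (0%), with 631 at an unadjusted p under 0.05 (limma). Leaving out 1 array gave 6 calls where it was Col mock replicate 2, 3 where it was ein2 mock replicate 1 and 2 where it was either Col IAA array. The 3 smallest p values with a named gene were those of AT3G47480, AT1G64405 and AGO7. AT3G47480 rose by 2.69 in Col and stood at 0.40 ± 0.21 in ein2 (3.32 and 3.45 against 3.57 and 4.01, mock against IAA), a difference of -2.29 ± 0.29 (adjusted p = 0.0655). AT1G64405 rose in both, by 5.71 ± 0.16 and 3.99 ± 0.16, and differed by -1.72 ± 0.23 (adjusted p = 0.0655). AGO7 (AT1G69440), an Argonaute protein that acts with a small RNA in the silencing of ARF genes, went the other way. It stood at 3.08 and 3.22 in the mock arrays and 3.13 and 3.14 in the IAA arrays in Col and rose in ein2 from 3.28 and 3.13 to 4.41 and 4.49, a difference of 1.26 ± 0.19 (adjusted p = 0.141).

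Levels in ein2 were set beside those in Col for the largest wild-type rises. GH3.1 measured 4.29 and 4.03 against 8.34 and 8.44 in ein2 (mock against IAA), so both ein2 mock arrays lay over 1 log2 unit above both Col mock arrays while the IAA arrays of the genotypes overlapped. These differences in level were not tested. LBD29 measured 5.78 and 6.13 against 10.45 and 10.63 and AT1G64405 5.74 and 5.39 against 9.60 and 9.50. Both ein2 mock arrays were above both Col mock arrays in 13 of the 25 largest rises, against 33.3% of all probe sets tested, and below them in 4, against 26.5%. Both ein2 IAA arrays were below both Col IAA arrays in 12 of the 25, against 29% of all, and above them in 2, against 26.7%. The median ein2 minus Col level over the 25 was 0.41 under mock and -0.39 under IAA. PUCHI, LBD16, WES1 and CLE44 rose in ein2 by 3.41, 1.57, 3.68 and 3.41, beside 2.27, 1.18, 3.71 and 3.57 in Col. Since the 25 were chosen for a large difference in Col, a low Col mock or a high Col IAA value made a gene more likely to be among them.

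The response to ethylene in Col was measured on 4 other arrays. Ethylene changed 1246 probe sets (8.75%), 567 higher (3.98%) and 679 lower (4.77%). Of the 582 rises with IAA, 69 were called higher with ethylene (11.9% of the 582 and 12.2% of the 567) and 37 lower (6.36%). Of the 391 falls, 153 were called lower with ethylene (39.1% of the 391 and 22.5% of the 679) and 14 higher (3.58%), and 329 were below 0 against 45.1% of all probe sets tested. The difference between the 2 effects was called for 609 probe sets (4.28%), 318 of them more positive with IAA (2.23%) and 291 more negative (2.04%), which included 195 of the 582 rises and 54 of the 391 falls. It was called for 384 without Col mock replicate 2 and 366 without Col IAA replicate 1.

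The 5 largest called positive differences were those of GH3.3, GH3.1, LBD29, AT1G64405 and AT4G37295, which rose with IAA and were below 0 with ethylene. For LBD29 the ethylene effect was -1.02 ± 0.28 (adjusted p = 0.0483) and the difference 7.03 ± 0.40 (adjusted p = 2.32e-06). GH3.3 measured 9.44 and 6.04 against 5.99 and 6.03 (air against ethylene), with the air replicates over 3 log2 units apart, and its ethylene effect was not called (adjusted p = 0.218). GH3.17, not called with IAA, fell with ethylene (-1.20 ± 0.13, adjusted p = 0.000142). The 5 largest negative differences belonged to genes that ethylene raised and IAA did not, AT5G19890, AT2G39980, AT5G40590, XTH26 and ARL. AT2G39980 rose with ethylene by 4.25 ± 0.22 and fell with IAA (-0.97 ± 0.22, adjusted p = 0.0194), a fall lost without Col mock replicate 2 (0.145) or without Col IAA replicate 1 (0.179). XTH26 (AT4G28850), which acts in root hairs, lay between 1.89 and 1.92 in all 4 arrays of the IAA comparison and rose by 3.94 ± 0.50 with ethylene.

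Among the 25 largest rises with IAA 6 were called higher and 5 lower with ethylene, against 3.98% and 4.77% of all probe sets tested. AT5G62280 rose with both, by 3.00 ± 0.39 and 3.74 ± 0.39, as did AT3G19200 (2.75 and 2.00), AT2G28690 (2.66 and 2.51) and AT4G35200 (2.38 and 2.78). AT1G03820 rose with IAA and fell with ethylene (2.63 and -1.95). Of the 20 largest falls 14 were called lower with ethylene and 1 higher, against the same 4.77% and 3.98%. EXPB1 fell by 1.64 with IAA and 3.29 with ethylene, AT3G19320 by 1.62 and 3.42, and ACT11 by 1.41 and 1.74. The peroxidase gene AT2G39040 was the 1 called higher, down by 1.43 with IAA and up by 1.52 ± 0.17 with ethylene, a difference of -2.95 ± 0.24 (adjusted p = 3.48e-05).

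**Figure D5:**
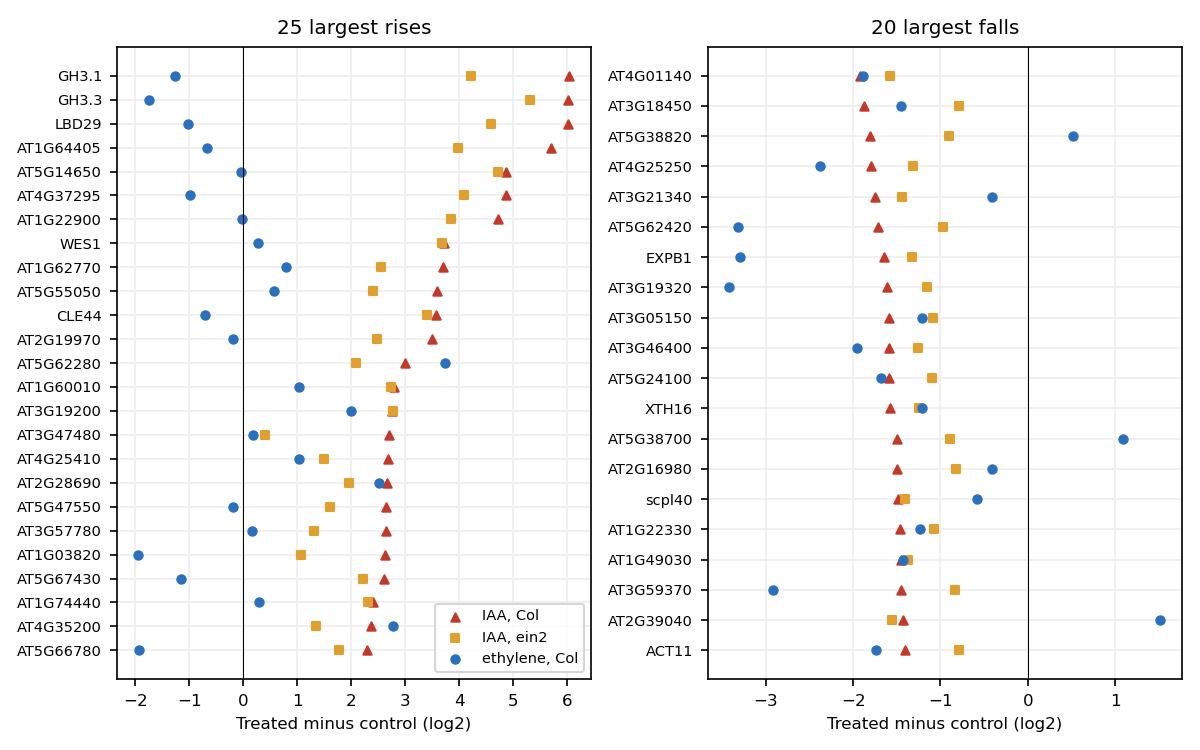
Log2 differences of the 25 largest rises (left) and 20 largest falls (right) with IAA in Col (red triangles), with the IAA effect in ein2 (orange squares) and the ethylene effect in Col (blue circles) of the same genes; genes were chosen by the red values. With ethylene 14 of the 20 falls were called lower, and 6 of the 25 rises were called higher and 5 lower. Over all probe sets tested 3.98% were called higher and 4.77% lower with ethylene.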

How the data were processed

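The deposited file held log2 values, 1 per probe set and array, which the authors had made with GCRMA, per the submitters' processing notes. Its version and settings and the genome build are not given in the sources used here. The values were used as deposited. They hold no detection calls, and the number of arrays limits their precision.

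Groups came from the labels. With limma 3.58.1 (R 4.3.3), 1 mean for each group was fitted to the 16 arrays without a block (8 residual and 3.36 prior degrees of freedom), and eBayes tested IAA minus mock in Col, its difference from ein2 and its difference from the ethylene effect in Col. The fit was tested on simulated data. Probe sets were named where the annotation gave 1 gene, with symbols from RefSeq (TAIR10.1). The text names the 25 largest rises and 20 largest falls with groups apart, the 10 most highly expressed calls, the 5 largest differences each way (3 smallest p for ein2) and list members. The comparison and lists were chosen with earlier results of these data known, and the families the text marks so after their values were seen. Other settings tried were filters, array scaling, an eBayes trend, 1 probe set per locus, a replicate block, fewer arrays, a 2-fold limit and each array left out. The genes AUX1 and EIN2 were not analysed here, since neither had a probe set of its own in the annotation.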

Additional observations from a re-analysis of the deposited data

How the results depend on the processing

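Of 973 probe sets called for IAA in Col, 318 passed a 2-fold limit, and 413 to 516 were called with 1 array left out, which leaves 1 array in a group whose spread is taken from the other groups. Without a filter, with a filter at 6, after median centring or quantile normalization, with an intensity trend, with 1 probe set per locus, in the auxin experiment alone and in the 4 arrays alone the count was 723 to 1322, within 1.5 times. The difference from ein2, 0 calls on all arrays, gave 3 calls without a filter and 0 to 6 with 1 array left out. The difference from ethylene, 609 calls, gave 366 to 605 with 1 array left out and 462 to 657 under the other settings without a block. The labels number the replicates 1 and 2 in every group and do not say that a number marks a shared batch. Deviations from the group means correlated at 0.275 between the numbered Col mock and Col IAA arrays, at 0.109 to 0.413 among the auxin groups, at 0.312 to 0.42 among the air and ethylene groups and at -0.145 to 0.015 between the experiments. That is a hint from the data, since 2 numbers give too few pairs to settle a pairing. With the replicate number as a block the counts were 1604, 5 and 1018 for the 3 comparisons. The named calls counted next pool 83 for IAA in Col with 10 for the difference from ethylene. Of 93 named calls, 93 were kept with the block and 59 without Col mock replicate 1, and 0 reversed under any setting. The cause of these shifts was not tested. Having 2 arrays in a group and the GCRMA floor limit what small or near-background changes can show.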

Other observations

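The following named genes were chosen after their values were seen, since they carry a symbol and were called for IAA in Col but fall outside the rule above. Of the 524 called probe sets with a named gene, 68 had a symbol and 456 a locus code alone. BRL1, a brassinosteroid receptor kinase, rose by 1.52 log2 units, and EXO, a protein of brassinosteroid-dependent growth, by 1.22. Rises were also called for the transcription factor gene EEL (1.52), the ubiquitin ligase gene ATL63 (1.52), the allantoate amidohydrolase gene AAH (1.23), the manganese transporter gene MTP11 (0.79), the autophagy gene ATG8G (0.59) and the membrane protein gene QKY (0.67), which acts in tissue patterning. PCN, needed for growth and nucleolar function, rose by 0.62, and the RNA-processing genes RRP41L and TRZ3 by 0.60 and 0.44.

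The falls given next were chosen in the same way. AUR2, an Aurora kinase, fell by 0.91, the microtubule-bundling gene ATMAP65-6 by 0.75 and TCP15, a growth-regulating transcription factor, by 0.82. THE1, a receptor kinase that senses the wall, fell by 0.72, and ZIP9, of a family of zinc transporters, by 0.97. DLAH, a lipase, fell by 0.90. Of these 17 genes, 5 kept their call whichever of the 4 Col arrays was left out (AAH, PCN, AUR2, ATMAP65-6 and THE1). The calls of EXO, ATG8G, QKY, TRZ3, TCP15 and ZIP9 were lost in each of the 4 omissions (adjusted p = 0.0524 to 0.292, limma). Those of EEL (up to 0.0572), ATL63 (up to 0.133), MTP11 (up to 0.0584), BRL1 (0.0556), RRP41L (0.0613) and DLAH (up to 0.14) were lost in some of them.

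Of 71 loci with 2 or more tested probe sets, 4 had at least 1 call. The probe sets of each of the 4 had the same sign, and in 2 of the 4 all were called. AT5G62440 rose by 0.77 ± 0.19 and 0.66 ± 0.16, calls lost without an array (up to 0.238), while for AT3G44510 a call at -1.10 ± 0.16 stood beside -0.43 ± 0.18 (adjusted p = 0.195).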
